A study of Mus musculus with 4 samples.

Results

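C1qa, C1qb and C1qc encode the A, B and C chains of C1q, the recognition protein that starts the classical complement pathway. The 3 genes were taken by symbol from the 32285 gene rows of the deposited matrices, and each had 1 row. CD45+ liver cells of female C57BL/6 mice had been sorted and measured by 10x Genomics 5′ single-cell RNA sequencing, in which each captured RNA molecule is counted by a unique molecular identifier (UMI). There were 4 libraries, 1 per group. The 2-month-old WT library came from untreated wild-type mice, aged 8 weeks by the labels. The DEN-CDHFD WT, DEN-CDHFD miR-146a-/- and DEN-CDHFD DKO libraries came from mice aged 36 weeks by the labels. All 3 of these groups had received the liver carcinogen diethylnitrosamine (DEN) at 25 mg/kg on day 14 of life and, after weaning on day 21, a choline-deficient diet with 60% fat (CDHFD). The miR-146a-/- mice lacked the microRNA miR-146a, a brake on inflammatory signalling, and the DKO mice lacked both miR-146a and the chemokine gene Ccl5. How many mice were pooled per library is not given. Age, carcinogen and diet differed together between the 2-month-old WT library and the other 3, so their effects cannot be told apart.

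The genotypes were checked first. Ccl5 was at 6174 CPM (UMI counts per 1e6 UMIs) in the 2-month-old WT library, 12544 CPM in DEN-CDHFD WT, 12496 CPM in DEN-CDHFD miR-146a-/- and 65.4 CPM in DEN-CDHFD DKO. The library labelled DKO therefore had far less Ccl5 RNA than the other 3. The features held no row for Mir146 or Mir146a, so the loss of miR-146a could not be checked in these counts.

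C1q is built from trimers of its A, B and C chains, which join collagen-like stems to globular heads. The heads bind antibody in immune complexes, dying cells and other surfaces, and the bound proteases C1r and C1s then cleave C4 and C2. Most complement proteins in blood are made by hepatocytes, whereas C1q comes largely from macrophages and related myeloid cells, among them Kupffer cells, the resident macrophages of the liver. Macrophages high in C1q are also common in tumours.

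The chains are encoded next to each other on the minus strand of chromosome 4 (mm10, coordinates from GENCODE M21). C1qb (ENSMUSG00000036905) spans 136880129 to 136886187, C1qc (ENSMUSG00000036896) spans 136889804 to 136893065, and C1qa (ENSMUSG00000036887) spans 136895917 to 136898803. There were 3616 bases between C1qb and C1qc and 2851 bases between C1qc and C1qa, and the 3 genes together spanned 18675 bases. Each gene's first listed transcript had 3 exons, with 1040 exon bases for C1qa, 1088 for C1qb and 1203 for C1qc. As the genes lie side by side and were detected in the same cells (below), the bases upstream of their annotated starts are shown for reference, and shared regulation was not tested. RefSeq promoter windows (GRCm38.p6) were matched for 2 of the 3 genes, C1qb and C1qc, and the stretch upstream of the start is printed for each, at chr4:136886201-136886450 for C1qb and chr4:136893066-136893164 for C1qc, both on the minus strand. Capitals mark matches to GAGGAA, the core bound by PU.1 (an ETS factor of myeloid cells), and TGCTGA, a core bound by c-Maf (encoded by Maf, a gene of the macrophage list), searched on both strands.
C1qb: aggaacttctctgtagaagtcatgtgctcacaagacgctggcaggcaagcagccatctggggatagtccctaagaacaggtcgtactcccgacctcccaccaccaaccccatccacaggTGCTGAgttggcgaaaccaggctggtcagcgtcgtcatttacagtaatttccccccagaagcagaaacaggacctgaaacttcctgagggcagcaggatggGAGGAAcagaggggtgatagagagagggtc
C1qc: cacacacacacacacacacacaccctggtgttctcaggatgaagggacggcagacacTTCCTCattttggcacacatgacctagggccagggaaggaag

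GAGGAA was found in both windows, 43 bases before the annotated start of C1qb and, on the opposite strand as TTCCTC, 42 bases before that of C1qc. TGCTGA was found once, 144 bases before the start of C1qb, and did not overlap GAGGAA. Of all 32851 promoter windows of 300 bases, 28.3% held GAGGAA and 19.5% held TGCTGA on either strand. These are matches of letters only.

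With the limits of 600 to 6000 features per cell and 5% for mitochondrial UMIs, the libraries held 10283 cells in 2-month-old WT, 8329 in DEN-CDHFD WT, 7824 in DEN-CDHFD miR-146a-/- and 9850 in DEN-CDHFD DKO. Their summed UMIs were 83882711, 84158257, 79464882 and 96747482, with a median of 6782, 8210, 7910 and 7558 UMIs per cell. Between 109 and 150 barcodes were shared by any pair of libraries. Cells were sorted into gates by lists of marker genes, none of which held a C1q gene. Cells passing a T-cell or NK-cell list together with a myeloid, neutrophil or plasmacytoid dendritic cell list, and no B-cell list, formed a gate of their own, called T/NK and myeloid here. Myeloid cells that passed no subclass list, or tied between lists, formed the other myeloid gate. The intervals below are exact 95% intervals and cover counting error only. With 1 library per group there was no replicate check and no test between groups.

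Macrophage-gate cells had by far the highest C1q level in each of the 4 libraries. Its summed C1qa, C1qb and C1qc UMIs came to 6089 CPM (5813 to 6375, 24 cells) in 2-month-old WT and 4661 CPM (4530 to 4796, 86 cells) in DEN-CDHFD WT. It was 5809 CPM (5622 to 6001, 46 cells) in DEN-CDHFD miR-146a-/- and 6797 CPM (6668 to 6928, 120 cells) in DEN-CDHFD DKO. With these gates the lowest was in DEN-CDHFD WT and the highest in DEN-CDHFD DKO, and each library's value was above that of every other gate. The order of libraries turned with the settings: gates read on thinned cells gave 4333, 5700, 9888 and 7314 CPM, at most 4500 features gave 4375 CPM in 2-month-old WT, the lowest, and thresholds 1 marker higher gave 8475 CPM there, the highest. Averaged over libraries, Mertk, a marker of the gate and a receptor for engulfing dying cells, had the largest log2 fold over all other kept cells (5.34), and C1qa (5.004), C1qc (4.99) and C1qb (4.98) were next among genes with at least 50 CPM. The order differed by library: C1qa, C1qb and C1qc ranked 14, 13 and 11 in 2-month-old WT, 13, 12 and 10 in DEN-CDHFD WT, 3, 2 and 5 in DEN-CDHFD miR-146a-/- and 5, 7 and 6 in DEN-CDHFD DKO.

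The T/NK and myeloid gate came next, at 681 CPM, 1110 CPM, 611 CPM and 961 CPM in 2-month-old WT, DEN-CDHFD WT, DEN-CDHFD miR-146a-/- and DEN-CDHFD DKO. The macrophage gate exceeded it 8.94-fold (8.46 to 9.44), 4.198-fold (4.07 to 4.33), 9.51-fold (9.14 to 9.89) and 7.08-fold (6.90 to 7.26) in the same order. C1qc (2.73), C1qa (2.73) and C1qb (2.71) had the largest log2 folds of the T/NK and myeloid gate over all other kept cells. These folds were averaged over libraries, among genes with at least 50 CPM. By CPM the other myeloid gate followed with 388, 477, 388 and 868 CPM. Over the 4 libraries the mean and SD were 5839 ± 889 CPM for the macrophage gate, 841 ± 235 CPM for T/NK and myeloid and 530 ± 229 CPM for other myeloid. The ranges of the last pair over libraries overlapped, but within each library T/NK and myeloid was above other myeloid, with intervals that did not overlap. The range of the macrophage gate overlapped with none.

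Monocytes held less. Classical monocytes, the Ly6c2-high inflammatory type, were at 61.3 CPM (38.9 to 92.03) in 2-month-old WT, 473 CPM in DEN-CDHFD WT, 234 CPM in DEN-CDHFD miR-146a-/- and 147 CPM in DEN-CDHFD DKO. Patrolling monocytes, which crawl along vessel walls, were at 205, 237, 127 and 324 CPM in the same order. These gates ranked next to each other, with means of 229 ± 177 CPM and 224 ± 81.5 CPM, and could not be separated by their spread. The patrolling-monocyte gate had its highest value in DEN-CDHFD DKO and its lowest in DEN-CDHFD miR-146a-/-, whereas the classical-monocyte gate had its highest in DEN-CDHFD WT and its lowest in 2-month-old WT. In 2-month-old WT each level rested mostly on 1 cell. Of the 30 classical monocytes, 1 held 22 of the 23 C1q UMIs, and of the 97 patrolling monocytes, 1 held 119 of the 186. Without these cells the levels were 2.78 and 74.99 CPM. Leaving out the cell with the most C1q UMIs in every library, an alternative chosen after seeing the data, put patrolling monocytes at 213, 90.9 and 307 CPM in the treated libraries, so their lowest value was then in 2-month-old WT.

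Levels in dendritic cells, which take up and present antigen, varied between libraries. In cDC2, C1q came to 1.95 CPM (0.236 to 7.03) in 2-month-old WT, 252 CPM (228 to 278) in DEN-CDHFD WT, 21.6 CPM (15.0 to 30.0) in DEN-CDHFD miR-146a-/- and 115 CPM (104 to 127) in DEN-CDHFD DKO. In cDC1 it ran from 12.96 CPM in DEN-CDHFD miR-146a-/- to 70.5 CPM in DEN-CDHFD DKO. Mature dendritic cells had no C1q UMI among the 12 cells of 2-month-old WT (0 to 20.3 CPM), and 133, 79.0 and 96.2 CPM in the treated libraries. Neutrophils had 251 CPM (137 to 421) in the 18 cells of DEN-CDHFD WT, of which 16 had no C1q UMI and 1 had at least 10, and 13.6 to 27.0 CPM elsewhere. In cDC2 of DEN-CDHFD WT, 73 of 91 cells had no C1q UMI and 10 cells held 96.3%. In DEN-CDHFD DKO, 10 cells held 91.6% in cDC1 (96 of 118 without a C1q UMI) and 94.9% in cDC2 (162 of 186 without). Of the mature dendritic cells of DEN-CDHFD WT, 10 held 96.4%. Plasmacytoid dendritic cells had 1.92 to 18.5 CPM, the highest in DEN-CDHFD DKO, where 125 of 128 cells had no C1q UMI.

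Lymphocytes, which are not known to make C1q, were taken as the background. B cells had 2.90, 7.08, 2.07 and 5.92 CPM in the order of the libraries above. NK cells or ILC1 had 3.73, 15.1, 11.8 and 12.7 CPM, and T cells 7.96, 35.7, 25.7 and 49.2 CPM. The T-cell level depended on the myeloid genes seen in the same cell: among T cells with none of the 8 myeloid markers it was 2.79, 12.5, 8.97 and 10.2 CPM, and among those with 3 it was 54.0, 117, 97.5 and 182 CPM. The ungated cells, at a median of 1987, 1803, 1526 and 1612 UMIs, had 53.0, 92.9, 94.1 and 256 CPM.

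**Figure D1:**
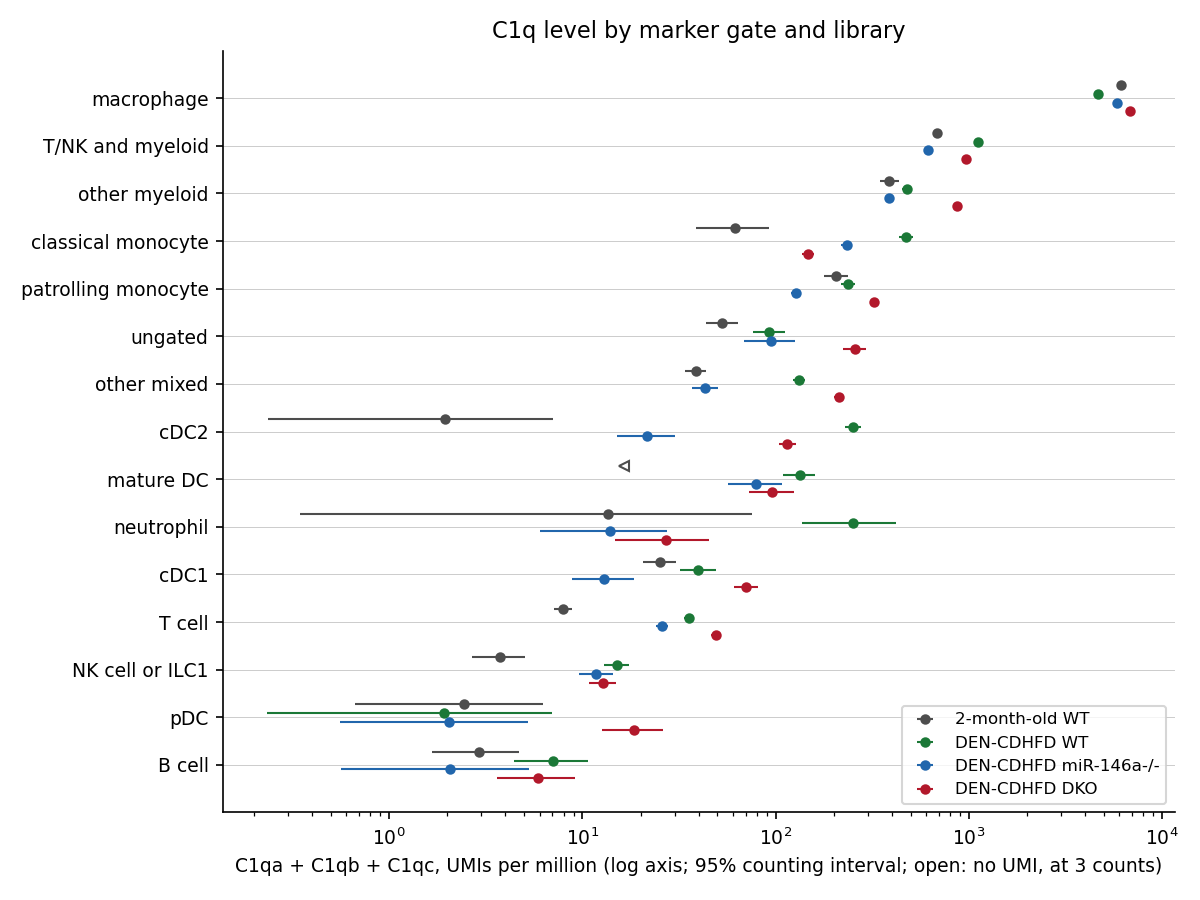
Summed C1qa, C1qb and C1qc CPM (log axis) for each marker gate (rows, ordered by the mean over libraries) and each library (colours), with exact 95% Poisson intervals. Open triangle: no UMI, drawn at the level of 3 counts; the macrophage gate lies between 4661 and 6797 CPM in the 4 libraries, to the right of all other gates.

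Most C1q UMIs were nevertheless outside the macrophage gate, which was small. It held 23.6% (22.7% to 24.6%) of the library's C1q UMIs in 2-month-old WT, 14.6% (14.2% to 15.0%) in DEN-CDHFD WT, 22.8% (22.1% to 23.4%) in DEN-CDHFD miR-146a-/- and 27.1% (26.7% to 27.6%) in DEN-CDHFD DKO. This share depended on the settings: with gates read on thinned cells it was 5.78% in 2-month-old WT and 13.7% in DEN-CDHFD DKO, and with at most 4500 features 24.6% in DEN-CDHFD WT. The T/NK and myeloid gate held 58.1%, 69.6%, 49.3% and 37.5%. In all 4 libraries this gate of cells with lymphocyte and myeloid transcripts thus held the largest share of C1q UMIs. Patrolling monocytes held 2.403%, 1.76%, 5.97% and 11.6%, and other myeloid cells 4.25%, 3.89%, 8.92% and 13.3%. Classical monocytes held 0.297%, 1.70%, 5.68% and 1.89%, highest in DEN-CDHFD miR-146a-/-. In 2-month-old WT, 1 cell gave 119 of the 186 C1q UMIs of patrolling monocytes and 1 cell 22 of the 23 of classical monocytes. The shares of patrolling monocytes and other myeloid cells were highest in DEN-CDHFD DKO, where patrolling monocytes were also the most numerous, at 1556 cells against 97, 186 and 776.

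**Figure D2:**
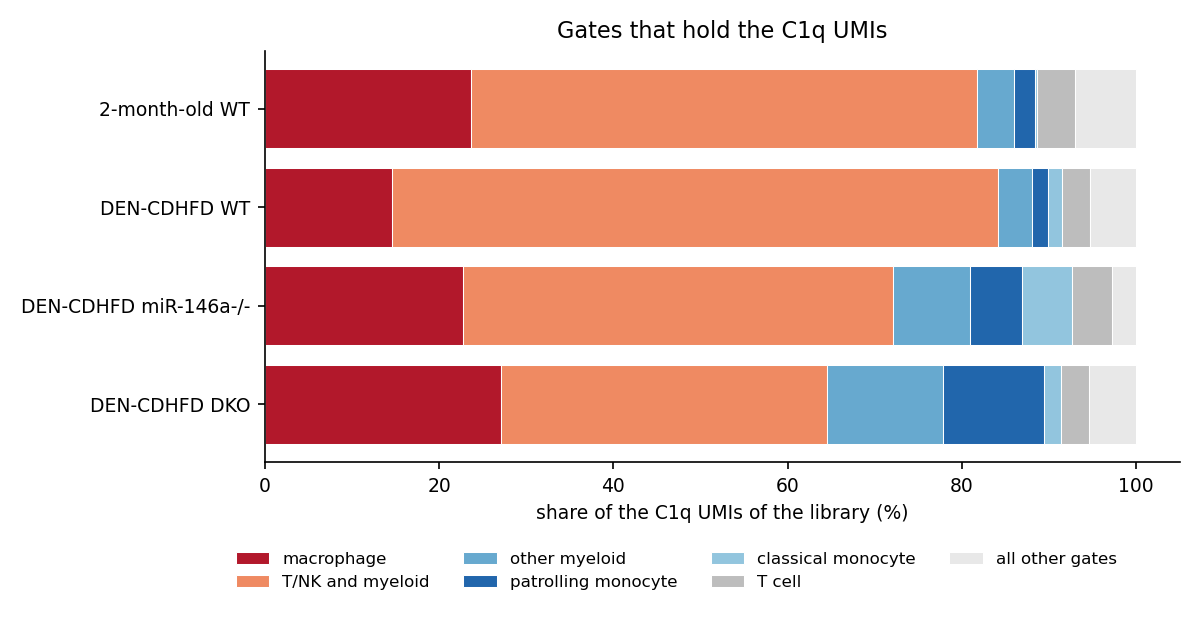
Share of each library's C1q UMIs (x axis, %) held by each marker gate (colours), 1 bar per library. The T/NK and myeloid gate is the widest segment in each bar, from 37.5% in DEN-CDHFD DKO to 69.6% in DEN-CDHFD WT.

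Within the T/NK and myeloid gate, C1q lay mainly in cells that also passed the macrophage list (Adgre1, Mertk, Fcgr1, Ms4a7, Maf and Axl, at least 3 detected). These were 117, 514, 191 and 279 cells, and they held 50.7%, 56.6%, 37.0% and 26.3% of all C1q UMIs of 2-month-old WT, DEN-CDHFD WT, DEN-CDHFD miR-146a-/- and DEN-CDHFD DKO. Their C1q level was 1756, 1757, 1428 and 2021 CPM. Taking every cell that passed the macrophage and myeloid lists, whatever else it passed, 80.7%, 78.4%, 72.5% and 68.8% of C1q UMIs were covered. Read this way, most C1q UMIs of each library were in cells passing both lists. Such cells were spread over the macrophage gate, the T/NK and myeloid gate and others.

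The gates differ in T-cell transcripts by their definition, and the levels show by how much. The 6 T-cell markers summed to 1676, 2290, 1950 and 1823 CPM in the T/NK and myeloid gate, led by Cd3e at 486, 683, 590 and 537 CPM, and none of the 6 was at 0. In the macrophage gate they summed to 46.6, 26.5, 22.3 and 17.4 CPM, and 3 of the 6 (Cd3d, Cd3g and Trbc2) were at 0 in 2-month-old WT. The T/NK and myeloid cells were also deep, with a median of 16951, 17468, 15526.5 and 12746.5 UMIs, against 7209, 7345, 6974 and 6459 in T cells and 13242.5, 11196, 13852.5 and 12523 in the macrophage gate. No doublet caller was run, and the part played by droplets that held more than 1 cell was not tested.

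C1q was concentrated in few cells. Cells with at least 10 C1q UMIs made up 1.15%, 6.80%, 3.35% and 5.91% of kept cells in the order of the libraries above, and held 92.2%, 93.1%, 91.8% and 92.1% of the C1q UMIs. The largest count in a single cell was 457, 390, 670 and 387 UMIs. Of these 118, 566, 262 and 582 cells, 65.3%, 65.7%, 53.4% and 53.4% passed the macrophage list and 66.9%, 73.3%, 61.5% and 44.3% the T-cell list. Of all kept cells, 1.70%, 9.09%, 4.90% and 7.26% passed the macrophage and myeloid lists. The T-cell gate made up 50.3%, 40.2%, 45.4% and 33.2% of all kept cells, and the T/NK and myeloid gate 3.67%, 14.1%, 10.2% and 10.6%. No conclusion is therefore drawn from the shares passing the T-cell list. None of the cells with at least 10 C1q UMIs was in the B-cell gate of any library.

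Levels varied widely from cell to cell within the macrophage gate. The median was 49.6 C1q UMIs per 10000 UMIs of the cell in 2-month-old WT (quartiles 1.08 and 103), 26.8 in DEN-CDHFD WT (0.451 and 80.0), 36.6 in DEN-CDHFD miR-146a-/- (1.95 and 84.6) and 64.6 in DEN-CDHFD DKO (11.6 and 122). The quartile ranges of all 4 libraries overlapped. The number of macrophage-gate cells without a C1q UMI was 6 of 24, 21 of 86, 10 of 46 and 20 of 120. The gate therefore mixed cells with much C1q and cells with little or none, and in 2-month-old WT 10 cells held 89.3% of its C1q UMIs.

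**Figure D3:**
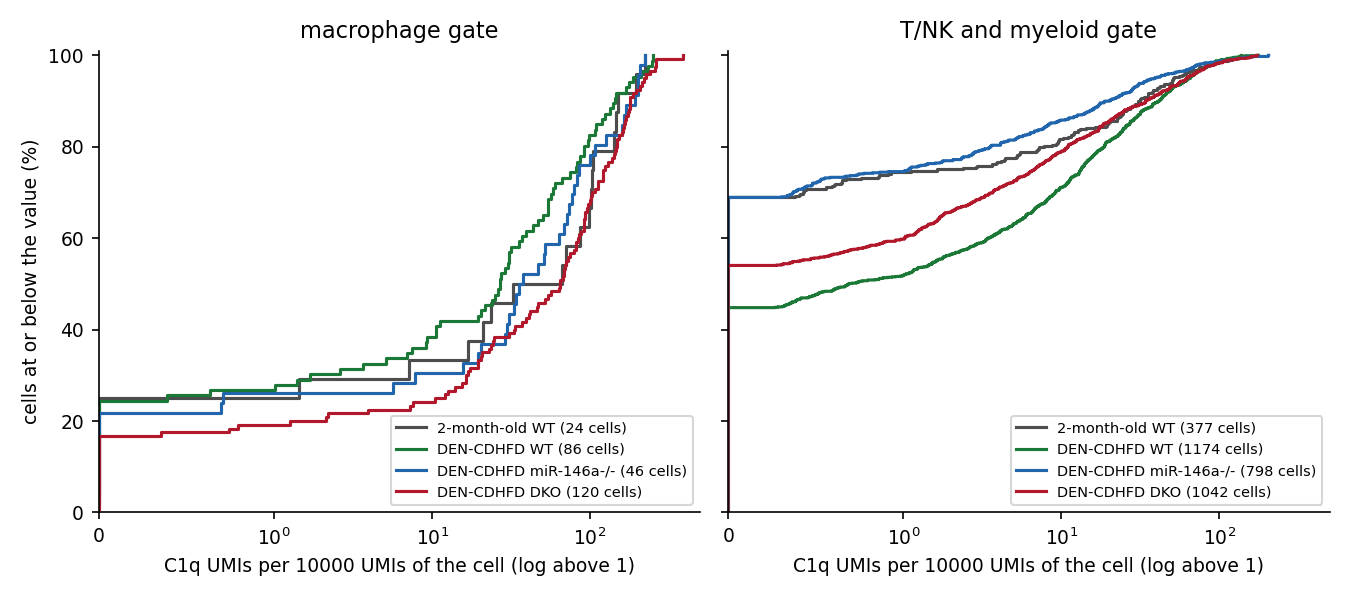
Cumulative share of cells (y axis, %) at or below a given number of C1q UMIs per 10000 UMIs of the cell (x axis, linear to 1 and log above), for the macrophage gate (left) and the T/NK and myeloid gate (right), 1 line per library. In the macrophage gate the median is highest in DEN-CDHFD DKO, 64.6, and lowest in DEN-CDHFD WT, 26.8.

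Most macrophage-gate cells carried C1q at equal depth too. With each cell thinned to 2000 UMIs, 69.6% (47.1% to 86.8%, 23 cells) had a C1q UMI in 2-month-old WT, 70.6% (59.7% to 80.0%, 85 cells) in DEN-CDHFD WT, 71.7% (56.5% to 84.0%, 46 cells) in DEN-CDHFD miR-146a-/- and 77.3% (68.7% to 84.5%, 119 cells) in DEN-CDHFD DKO. The 4 intervals overlapped, and a difference between libraries was not detectable with so few cells. Thinning left out 1, 1, 0 and 1 cells, and without it the shares were 75%, 75.6%, 78.3% and 83.3%. In B cells, taken as the background, 0.766%, 1.17%, 0.727% and 1.31% of thinned cells had a C1q UMI (medians of 5216.5, 6029, 6431 and 5825 UMIs before thinning), and in T cells 1.18%, 4.57%, 3.49% and 5.17%. Patrolling monocytes, at 5.21%, 12.9%, 6.10% and 12.9%, and classical monocytes, at 3.45%, 15.5%, 6.93% and 11.6%, were above the B-cell share in each library, although in 2-month-old WT the interval for classical monocytes (0.0873% to 17.8%) covered it.

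Between libraries, C1q RNA over all kept cells was lowest in 2-month-old WT and lower in DEN-CDHFD miR-146a-/- than in the other 2 treated libraries. C1qa was at 25.4, 91.8, 51.1 and 100.9 CPM, C1qb at 42.0, 200, 99.5 and 200 CPM, and C1qc at 24.8, 94.3, 51.0 and 100.2 CPM in 2-month-old WT, DEN-CDHFD WT, DEN-CDHFD miR-146a-/- and DEN-CDHFD DKO. All 3 chains showed the same low, high, intermediate, high order. Their sum came to 92.3 CPM (90.2 to 94.3), 386 CPM (382 to 390), 202 CPM (199 to 205) and 401 CPM (397 to 405). The log2 ratio was 2.06 (2.03 to 2.10) for DEN-CDHFD WT over 2-month-old WT, -0.94 (-0.96 to -0.91) for DEN-CDHFD miR-146a-/- over DEN-CDHFD WT and 0.99 (0.97 to 1.02) for DEN-CDHFD DKO over DEN-CDHFD miR-146a-/-. The last pair of ratios share the miR-146a-/- library.

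Both the number of cells and C1q per cell differed between libraries. C1q per cell is given here as raw UMIs, not scaled to the depth of the cells. Per 10000 kept cells there were 23.3, 103, 58.8 and 122 macrophage-gate cells in the order above, while each held 76.2, 55.2, 79.3 and 87.7 C1q UMIs on average. For the T/NK and myeloid gate there were 367, 1410, 1020 and 1058 cells per 10000, with 11.9, 19.2, 9.89 and 14.0 C1q UMIs each. From 2-month-old WT to DEN-CDHFD WT, both gates were larger and, of these gates, only T/NK and myeloid had higher C1q per cell. From DEN-CDHFD WT to DEN-CDHFD miR-146a-/-, both gates were smaller and, of these gates, only T/NK and myeloid had lower C1q per cell, by a larger factor than its number of cells. From DEN-CDHFD miR-146a-/- to DEN-CDHFD DKO, C1q per cell was higher in both gates, the macrophage gate was larger, and the T/NK and myeloid gate was of similar size. Monocyte and other myeloid gates also differed. Per 10000 kept cells there were 94.3, 223, 992 and 1580 patrolling monocytes, with 1.92, 3.08, 1.23 and 2.89 C1q UMIs each. Other myeloid cells numbered 67.1, 339, 404 and 483 (4.77, 4.48, 4.52 and 10.9 each). Classical monocytes numbered 29.2, 133, 291 and 291 (0.767, 4.98, 3.99 and 2.55 each). Their median depth was 12684, 11231, 18585.5 and 17906 UMIs, and that of patrolling monocytes 7716, 11742.5, 7468.5 and 6370.5. Scaled to depth, other myeloid cells were higher in DEN-CDHFD WT than in 2-month-old WT (477 against 388 CPM). Patrolling monocytes were then highest in DEN-CDHFD DKO (324 CPM, against 237 in DEN-CDHFD WT). From DEN-CDHFD WT to DEN-CDHFD miR-146a-/- the monocyte and other myeloid gates were larger and held more C1q UMIs per 10000 kept cells. Shares of cells follow the sort and the dissociation as well as the liver, and their part was not tested.

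Within the macrophage gate the differences between libraries were small, and no chain differed 2-fold in any contrast. C1qa, which carries binding sites for many ligands, was at 1642, 1105, 1494 and 1777 CPM in the order above. C1qb was at 2735, 2407, 2936 and 3307 CPM, and C1qc at 1712, 1149, 1379 and 1714 CPM. All 3 chains had their lowest value in DEN-CDHFD WT, and C1qa and C1qb their highest in DEN-CDHFD DKO, where C1qc was level with 2-month-old WT. The log2 ratios for DEN-CDHFD WT over 2-month-old WT were -0.57 for C1qa, -0.18 for C1qb and -0.58 for C1qc, and -0.39 (-0.46 to -0.31) for their sum. None of the 3 was 2-fold higher or lower, against 2.37% of 3212 genes that were higher and 3.21% that were lower. The balance of these turned with the settings: 76 were higher and 103 lower as reported, 114 and 70 with TMM, and 247 and 159 with a minimum of 20 CPM.

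For DEN-CDHFD miR-146a-/- over DEN-CDHFD WT the log2 ratios in the macrophage gate were 0.43 for C1qa, 0.29 for C1qb and 0.26 for C1qc, and 0.32 (0.25 to 0.38) for the sum. None was past 2-fold, against 1.59% of 3325 genes higher and 3.91% lower. For DEN-CDHFD DKO over DEN-CDHFD miR-146a-/- they were 0.25, 0.17 and 0.31, and 0.23 (0.17 to 0.28) for the sum, again with none past 2-fold, against 1.82% of 3180 genes higher and 1.01% lower. The median log2 ratio of all genes compared was 0.02, -0.05 and 0.03 in the 3 contrasts, and that of the 3 chains -0.57, 0.29 and 0.25. For DEN-CDHFD WT over 2-month-old WT the lower quartile of all genes was -0.28. For DEN-CDHFD miR-146a-/- over DEN-CDHFD WT the upper quartile was 0.21, and for DEN-CDHFD DKO over DEN-CDHFD miR-146a-/- it was 0.24.

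The sign of each macrophage-gate ratio turned on how the cells were gated. When gates were read on cells thinned to 2000 UMIs, the log2 ratio became 0.40 for DEN-CDHFD WT over 2-month-old WT (46 and 9 cells), 0.79 for DEN-CDHFD miR-146a-/- over DEN-CDHFD WT, and -0.43 for DEN-CDHFD DKO over DEN-CDHFD miR-146a-/-. When every cell passing the macrophage and myeloid lists was taken, a choice made after seeing the data, the ratios were -0.17, -0.26 and 0.52. The level was then 2029, 1810, 1513 and 2173 CPM over 175, 757, 383 and 715 cells, lowest in DEN-CDHFD miR-146a-/- and highest in DEN-CDHFD DKO. Leaving out the 1 cell with the most C1q UMIs in each library gave -0.15, 0.17 and 0.42. The direction of C1q per macrophage between these libraries thus depended on the gate, and the cause was not tested.

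**Figure D4:**
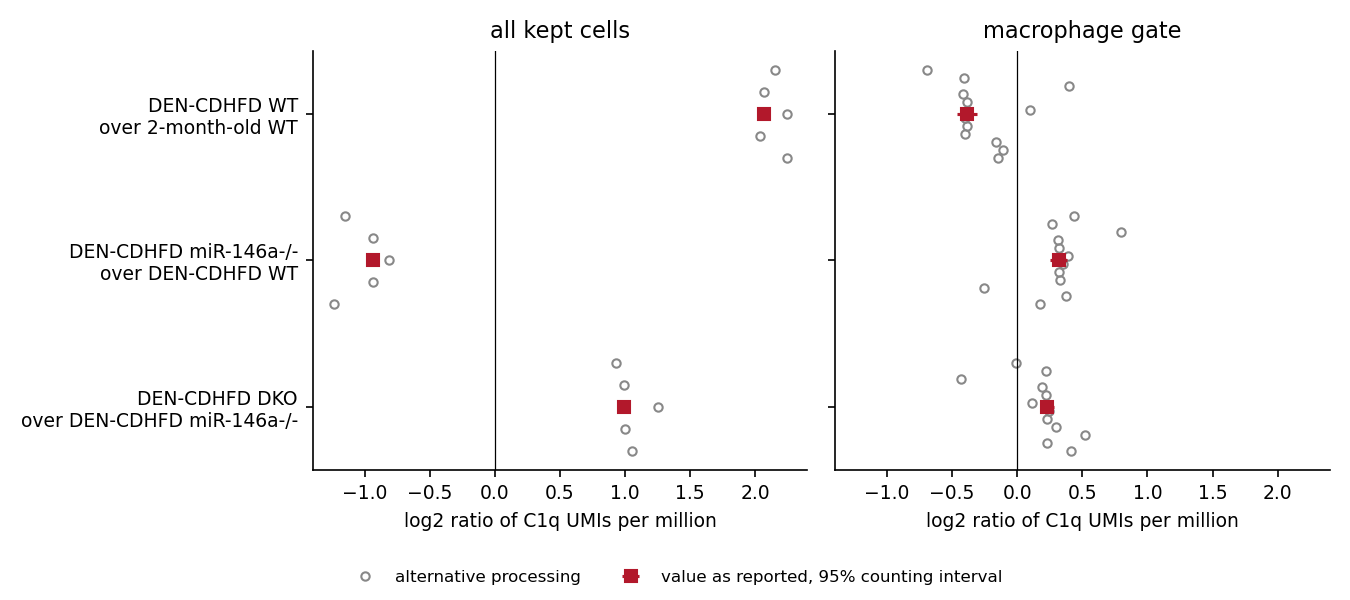
Log2 ratio of the summed C1q level (x axis) for the 3 contrasts (rows), over all kept cells (left) and in the macrophage gate (right). Red squares with bars are the values as reported with 95% counting intervals, and grey circles are the alternatives; all circles lie on the same side of 0 as the square over all kept cells, and each macrophage-gate contrast has circles on both sides.

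Outside the macrophage gate, the size of the differences varied by gate. For DEN-CDHFD WT over 2-month-old WT the summed log2 ratio was 2.95 (2.35 to 3.62) in classical monocytes and 0.70 (0.66 to 0.75) in T/NK and myeloid cells, but 0.30 (0.12 to 0.48) in other myeloid cells. For patrolling monocytes it was 0.21 (-0.03 to 0.45). Each of the classical and patrolling values depended on 1 cell of 2-month-old WT. Without the cell with the most C1q UMIs of each library, chosen after seeing the data, they were 7.07 (4.59 to 12.38), with 1 UMI left in the 29 classical monocytes of 2-month-old WT, and 1.51 (1.14 to 1.90). For DEN-CDHFD miR-146a-/- over DEN-CDHFD WT it was -1.02 (-1.17 to -0.86) in classical monocytes, -0.90 (-1.05 to -0.74) in patrolling monocytes, -0.86 (-0.90 to -0.82) in T/NK and myeloid cells and -0.30 (-0.41 to -0.19) in other myeloid cells. For DEN-CDHFD DKO over DEN-CDHFD miR-146a-/- it was -0.67 (-0.81 to -0.53) in classical monocytes but 1.35 (1.25 to 1.45) in patrolling monocytes, 1.16 (1.08 to 1.25) in other myeloid cells and 0.65 (0.61 to 0.69) in T/NK and myeloid cells. Without the same cells the patrolling values of these contrasts were -1.23 (-1.397 to -1.060) and 1.76 (1.64 to 1.88), and every ratio of these gates kept its sign. How far C1q was concentrated varied: the top 10 cells held 90.5% of the C1q UMIs of the 228 classical monocytes of DEN-CDHFD miR-146a-/-, 30.1% of those of the 1556 patrolling monocytes of DEN-CDHFD DKO and 11.7% of those of the 1174 T/NK and myeloid cells of DEN-CDHFD WT. RNA of the 8 neutrophil genes also differed within these gates, at 336, 373, 8208 and 3709 CPM in patrolling monocytes and 306, 238, 2283 and 2438 CPM in T/NK and myeloid cells, and its part in the C1q ratios was not tested. The T-cell gate differed in the same directions as the whole library, with log2 ratios of 2.17, -0.47 and 0.93, and whether free RNA carried this was not tested.

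C1qb contributed about as many UMIs as C1qa and C1qc together. In the macrophage gate its share of C1q UMIs was 44.9% (42.6% to 47.2%) in 2-month-old WT, 51.6% (50.2% to 53.1%) in DEN-CDHFD WT, 50.5% (48.9% to 52.2%) in DEN-CDHFD miR-146a-/- and 48.7% (47.7% to 49.6%) in DEN-CDHFD DKO. The 5′ chemistry counts 1 end of each molecule, so these shares were not divided by transcript length. C1qa gave 27.0%, 23.7%, 25.7% and 26.1%, and C1qc 28.1%, 24.6%, 23.7% and 25.2%. The C1qb share was lowest in 2-month-old WT, but this rested on very few cells. Without the 2 Kupffer-list cells of that library it was 48.2% (45.5% to 50.9%), and without the 1 cell with the most C1q UMIs 48.1% (45.4% to 50.8%), level with DEN-CDHFD DKO. Both alternatives were chosen after seeing the data. The C1qb share was also lowest in 2-month-old WT in the T/NK and myeloid gate, where it was 45.8% (44.3% to 47.2%), 51.6% (50.9% to 52.2%), 48.4% (47.3% to 49.5%) and 50.3% (49.5% to 51.1%), and over all kept cells, where it was 45.6%, 51.8%, 49.4% and 49.9%. Without Kupffer-list cells these 2-month-old WT values were 46.2% (44.7% to 47.6%) and 46.6% (45.4% to 47.8%), the first of which overlapped the interval of DEN-CDHFD miR-146a-/- (47.3% to 49.6%).

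Other gates did not hold the chains in exactly these proportions. Patrolling monocytes of DEN-CDHFD WT had a C1qb share of 61.8% (57.7% to 65.8%), above the macrophage gate of the same library, while those of DEN-CDHFD DKO had 51.9% (50.4% to 53.4%). Of the 186 patrolling monocytes of DEN-CDHFD WT, 138 had no C1q UMI and 10 held 68.6%. How far the share of 61.8% rested on few cells was not tested. T cells had 41.4%, 45.9%, 45.9% and 41.0%, below the macrophage gate in each library, with intervals that did not overlap for DEN-CDHFD WT (42.8% to 48.99%) and DEN-CDHFD DKO (38.2% to 43.8%).

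**Figure D5:**
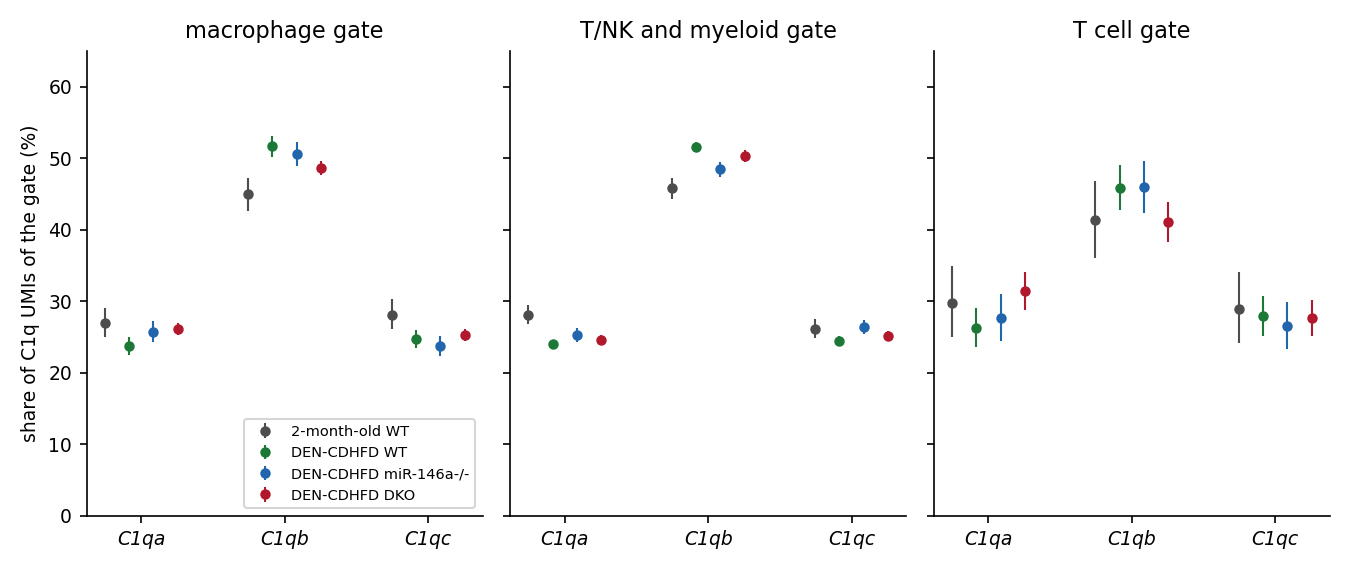
Share of the C1q UMIs of a gate (y axis, %) that came from C1qa, C1qb and C1qc (x axis) in the macrophage, T/NK and myeloid, and T-cell gates, 1 colour per library, with exact 95% binomial intervals. C1qb gives 44.9% to 51.6% in the macrophage gate; the value of 2-month-old WT, 44.9%, is 48.2% without its 2 Kupffer-list cells.

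The chains were found in the same macrophages. In macrophage-gate cells thinned to 2000 UMIs, all 3 chains were detected in 12 of 23 cells in 2-month-old WT, 35 of 85 in DEN-CDHFD WT, 26 of 46 in DEN-CDHFD miR-146a-/- and 69 of 119 in DEN-CDHFD DKO. No chain was detected in 7, 25, 13 and 27 of them. Spearman's rho between C1qa and C1qc over these cells was 0.89, 0.79, 0.90 and 0.84, between C1qa and C1qb 0.88, 0.78, 0.79 and 0.84, and between C1qb and C1qc 0.86, 0.85, 0.81 and 0.84. Cells of 1 library are not replicates, and these values describe the libraries.

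Macrophage-gate cells were then described by their Kupffer-cell genes (Clec4f, Vsig4, Timd4, Cd5l, Marco and Folr2) and by genes of lipid-associated macrophages (Trem2, Gpnmb, Spp1, Lpl, Atp6v0d2 and Mmp12), which gather in fatty and damaged liver. Cells passing the Kupffer list were scarce: 2 of 24 in 2-month-old WT, 3 of 86 in DEN-CDHFD WT, 0 of 46 in DEN-CDHFD miR-146a-/- and 1 of 120 in DEN-CDHFD DKO. The 2 cells in 2-month-old WT had the highest C1q level of any such group in that library, 21483 CPM (19615 to 23480), and held 6.28% of its C1q UMIs. In DEN-CDHFD WT, 1 Kupffer-list cell was at 23334 CPM, and the 2 that also passed the lipid-associated list were at 11717 CPM. In DEN-CDHFD DKO the 1 cell was at 4149 CPM, below cells of the lipid-associated list alone (6634 CPM) and of neither list (6946 CPM). Without cells of the Kupffer list, the macrophage gate was at 4835, 4483, 5809 and 6807 CPM, so the lowest library did not change.

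The Kupffer genes summed to 1176, 305, 22.3 and 215 CPM in the macrophage gate, with Cd5l the most abundant at 383, 225 and 178 CPM in 2-month-old WT, DEN-CDHFD WT and DEN-CDHFD DKO. In DEN-CDHFD miR-146a-/- 3 of the 6 (Clec4f, Marco and Folr2) were at 0. Cells passing the lipid-associated list alone numbered 9, 49, 14 and 43, with C1q at 6938, 5399, 7985 and 6634 CPM. Cells passing neither list numbered 13, 34, 32 and 76, with 2997, 2674, 4564 and 6946 CPM. In the first 3 libraries the lipid-associated cells therefore had more C1q than cells of neither list, and in DEN-CDHFD DKO they had slightly less. In the T/NK and myeloid cells that passed the macrophage list, 41, 279, 63 and 82 also passed the lipid-associated list, at 2084, 2315, 1659 and 2543 CPM.

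Over the 52 points of 13 gates and 4 libraries, 6672 genes reached 50 CPM in at least 1 point, and among the 10 whose level followed summed C1q most closely were Itga9 (Pearson's r 0.92), Ms4a7 (0.91), Mertk (0.89), Nr1h3 (0.89), Gdf3 (0.88), Acp2 (0.88), Itgb5 (0.88), C3ar1 (0.87) and Fabp5 (0.87). Itga9 and Itgb5 are integrins, Nr1h3 encodes the sterol sensor LXR alpha, Acp2 a lysosomal phosphatase and C3ar1 the receptor for the complement fragment C3a. Ms4a7 and Mertk are in the macrophage list, so their rank follows in part from the gate. The points share libraries and free RNA, and each r is a description over log2(CPM + 1).

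Within the macrophage gate, genes were ranked by how they followed C1q from cell to cell. Of 2695 genes detected in at least 10% of the 273 thinned cells, the 10 with the highest mean Spearman's rho with summed C1q UMIs were Cd81 (0.53), Apoe (0.41), Lgmn (0.38), Adgre1 (0.37), Ckb (0.35), Itm2b (0.35), Cadm1 (0.34), Ms4a7 (0.34), Itgb5 (0.32) and Cd72 (0.31). Ms4a7 and Itgb5 were among the 10 of both rankings. Adgre1 and Ms4a7 are in the macrophage list, so their rank may follow in part from the gate. Apoe encodes the lipid carrier apolipoprotein E, Lgmn a lysosomal protease, Adgre1 the F4/80 antigen and Cd81 a tetraspanin. Cd81 had a rho of 0.51, 0.60, 0.53 and 0.47 in the 4 libraries, whereas Itgb5 ranged from 0.03 in DEN-CDHFD WT to 0.66 in 2-month-old WT. Most of these values are low, in sparse counts.

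Other complement genes were then read by gate. Gates with 20 or more cells in every library were used. Of 59 genes on 10 lists, 23 (39.0%) reached 50 CPM in at least 1 gate, against 21.4% of all 32285 genes. Of the 23, 6 (26.1%) had their highest mean in the macrophage gate, against 5.06% of all genes that reached 50 CPM. Among the 6, Fcna, C6 and Vsig4 reached 50 CPM in the macrophage gate of 2-month-old WT alone. The share of 26.1% therefore follows in part from the minimum of 50 CPM, and no conclusion is drawn from it. None of the 4 genes for C1r and C1s, the proteases that C1q activates, reached 50 CPM. Of the classical pathway, 1 of 4 did: C3, the central component, was highest in classical monocytes (mean 301 CPM) and stood at 160, 82.5, 79.6 and 107 CPM in the macrophage gate. C1q RNA was thus present in the macrophages without comparable RNA for its partner proteases.

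Of the alternative pathway, 2 of 3 reached 50 CPM. Cfb (factor B) was at 107 CPM on average in both classical monocytes and macrophages, and Cfp (properdin) was highest in cDC2, at 330 CPM. Of the lectin pathway, 1 of 8 did: Fcna, encoding ficolin A, was at 243 CPM in the macrophage gate of 2-month-old WT and at 19.7, 0 and 6.46 CPM in the treated libraries. C6, the single terminal component of 7 to reach 50 CPM, was at 60.0 CPM in the macrophage gate of 2-month-old WT and at 0.983, 0 and 0 CPM in the others. Both genes reached 50 CPM in this gate and library alone, so their highest level there follows from the minimum of 50 CPM.

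Membrane regulators had their highest levels in other gates. Cd55 was highest in B cells (434 CPM) and Cr1l in NK cells or ILC1 (99.0 CPM). In the macrophage gate Cd55 stood at 0, 1.97, 0 and 0 CPM in the order of the libraries above. Cr1l was present there, at 49.97, 28.5, 55.7 and 57.5 CPM. Receptors were the list best represented, with 7 of 8 genes at 50 CPM. C3ar1 was highest in the macrophage gate, at 86.6, 126, 90.8 and 109 CPM. Vsig4, a receptor for C3b that is also in the Kupffer list, was at 213 CPM in the macrophage gate of 2-month-old WT. It was at 18.7, 3.18 and 22.6 CPM in the treated libraries. Like Fcna and C6, Vsig4 reached 50 CPM in this gate and library alone, so its highest level there follows from the minimum. Of proteins reported to bind C1q, 6 of 8 reached 50 CPM, with Calr (calreticulin, mean 385 CPM) and Cd93 (105 CPM) highest in macrophages, Lrp1 (358 CPM) in classical monocytes and Lair1, an inhibitory receptor, in plasmacytoid dendritic cells (745 CPM). Of other genes with a C1q domain, 1 of 6 did: C1qtnf6, at 71.1 CPM in NK cells or ILC1.

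In the macrophage gate, 15, 14 and 15 of the 59 genes had enough UMIs to be compared in the 3 contrasts. For DEN-CDHFD WT over 2-month-old WT, 0 of 15 were at least 2-fold higher and 2 lower, Fcna (log2 ratio -3.60) and Vsig4 (-3.49), against 2.37% and 3.21% of all genes compared, whose balance turned with the settings as given above. For DEN-CDHFD miR-146a-/- over DEN-CDHFD WT, 0 of 14 were higher and 1 lower, C5ar1 (-1.49), the receptor for C5a, against 1.59% and 3.91%. For DEN-CDHFD DKO over DEN-CDHFD miR-146a-/-, 1 of 15 was higher, again C5ar1 (1.06), and 0 lower, against 1.82% and 1.01%. C5ar1 stood at 70.0, 141, 49.4 and 104 CPM. Fcna and Vsig4 met the minimum of 50 CPM in 2-month-old WT alone in their contrast, and C5ar1 fell just below it in DEN-CDHFD miR-146a-/-. The called genes thus passed the filter only through the library where they were high, so no conclusion is drawn from these counts. The receptor list had median log2 ratios of -0.13, 0.35 and 0.06 and the list of C1q binders -0.31, 0.01 and 0.10, beside the medians of all genes given above.

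Summed RNA of hepatocyte genes was higher in the macrophage gate than over all kept cells in each library. The sum of sinusoidal endothelial genes was also higher, but through Kdr alone in DEN-CDHFD miR-146a-/- and only slightly in DEN-CDHFD DKO. The 6 hepatocyte genes summed to 93.3, 42.2, 31.8 and 36.8 CPM, against 27.9, 23.1, 12.6 and 17.4 CPM over all kept cells, led by Alb in 3 libraries (63.3, 21.6 and 12.3 CPM) and by Ttr in DEN-CDHFD miR-146a-/- (11.1 CPM). Serpina1c was at 0 in 3 of the 4. Sinusoidal endothelial genes summed to 49.97, 24.6, 22.3 and 12.3 CPM, against 13.6, 10.5, 8.78 and 10.8 CPM. The macrophage-gate sums rested on 15, 25, 14 and 19 UMIs. In DEN-CDHFD miR-146a-/- all 14 were of Kdr, and the other 5 endothelial genes were at 0. Of the 6, 3 were at 0 in 2-month-old WT, 1 in DEN-CDHFD WT and 2 in DEN-CDHFD DKO. The 6 genes of stellate cells or fibroblasts summed to 0, 0.983, 1.59 and 3.23 CPM, and all 6 were at 0 in 2-month-old WT. The part of this RNA in the C1q levels was not tested.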

How the data were processed

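The authors aligned reads with Cell Ranger to mm10 and left them unnormalized: the deposited raw UMI counts are whole numbers for each gene in each cell. The file headers and labels name version 7.0.1, and the study's text names another. The matrices held 10985, 9120, 8393 and 10623 cells (2-month-old WT, DEN-CDHFD WT, DEN-CDHFD miR-146a-/-, DEN-CDHFD DKO). The limits on cells were those of the study: 600 to 6000 features and 5% for mitochondrial UMIs. No doublet caller was run, so the ceiling of 6000 features is the single guard against doublets. The study's text gives slightly different ages from the labels.

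Gates used lists of 6 or 8 genes, a gene counting as detected with at least 1 UMI: lists needed 3 genes, except myeloid and neutrophil (4) and lipid-associated (2). Lineages were T or NK, B, and myeloid (myeloid, neutrophil or pDC list). A cell of the myeloid lineage alone took the passed subclass with the largest share of its list detected, ties going to other myeloid. CPM were computed from summed UMIs. Intervals were exact (Poisson, Clopper-Pearson, or conditional binomial for a ratio) at 95%. In the macrophage gate a gene was compared when either library reached 50 CPM and 20 UMIs, with 0.5 UMIs added. A count of 0 was given an upper limit of 3 counts. Thinning drew UMIs without replacement (seed 0).

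Named genes were the 3 chains, list genes with at least 50 CPM in 1 gate, marker genes and the 10 genes most like C1q by each measure, without genes of mitochondria, ribosomal proteins or antigen receptors. The members and lists were chosen with earlier results of these data known. The functions were tested on simulated data. Alternatives changed the gates, the limits on cells, the CPM denominator, the average, the thinning, the likeness measure, the minimum level and, with TMM factors from edgeR 4.0.16, the scaling. The tools were Python 3.11.15 with numpy 2.4.6, scipy 1.17.1, pandas 2.3.3 and matplotlib 3.10.9, and R 4.3.3.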

Additional observations from a re-analysis of the deposited data

Results flagged for a closer look

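Cells outside the limits on features and mitochondrial share are not in the values above. Their C1q level was compared with that of the same cells in the 2-month-old WT library, where it was 258 CPM (upper bound 271). It was above this in DEN-CDHFD WT, at 816 CPM (803 to 829), and in DEN-CDHFD DKO, at 354 CPM (340 to 369). In DEN-CDHFD miR-146a-/- it was 277 CPM (266 to 288), whose interval overlapped that of 2-month-old WT. These cells held 32.3% of the C1q UMIs deposited for DEN-CDHFD WT and 5.52% for DEN-CDHFD DKO, against 18.7% for 2-month-old WT and 13.8% for DEN-CDHFD miR-146a-/-. Most of it lay above 6000 features: 427 cells with 15004 C1q UMIs in DEN-CDHFD WT and 136 cells with 1731 in DEN-CDHFD DKO. The part of droplets with more than 1 cell was not tested.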

How the results depend on the processing

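Of 36 alternatives for the macrophage-gate C1q ratios, 31 kept the sign and 5 turned it. The values, in the order DEN-CDHFD WT over 2-month-old WT, DEN-CDHFD miR-146a-/- over DEN-CDHFD WT and DEN-CDHFD DKO over DEN-CDHFD miR-146a-/-, were -0.39, 0.32 and 0.23 as reported. They were -0.69, 0.44 and -0.0081 with each threshold 1 marker higher, 0.40, 0.79 and -0.43 with gates read on thinned cells, and 0.10, 0.39 and 0.11 with an upper limit of 4500 features. Averaging over cells gave 0.30 for the last. Of the alternatives chosen after seeing the data, taking every cell that passed the macrophage and myeloid lists gave -0.17, -0.26 and 0.52, leaving out the cell with the most C1q UMIs gave -0.15, 0.17 and 0.42, and leaving out Kupffer-list cells gave -0.11 for the first. The cause was not tested.

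All 15 alternatives for the all-cell ratios kept the sign. Without limits on cells they were 2.15, -1.15 and 0.93, with at most 4500 features 2.24, -0.81 and 1.26, and without cells of at least 100 C1q UMIs, also chosen after seeing the data, 2.25, -1.24 and 1.05. With the cell with the most C1q UMIs of each library left out, the first ratio was 7.07 in classical and 1.51 in patrolling monocytes, against 2.95 and 0.21. The macrophage gate's share of C1q UMIs ran from 5.78% to 29.95% over 24 alternatives. All 8 alternatives for the share of macrophage-gate cells with C1q (65.1% to 83.3%) were within the reported intervals, as were 10 of 12 for the chain share of C1qa, 10 of 12 for C1qb and 12 of 12 for C1qc. The others, chosen after seeing the data, were in 2-month-old WT: without Kupffer-list cells C1qa was 24.8% and C1qb 48.2%, and without the cell with the most C1q UMIs 24.9% and 48.1%.

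With a minimum of 20 CPM, which admits more genes, 247 genes were 2-fold higher and 159 lower, 109 and 337, and 173 and 68 in the 3 contrasts, against 76 and 103, 53 and 130, and 58 and 32. TMM gave 114 and 70 in the first contrast, where C1qa, C1qb and C1qc were at -0.45, -0.06 and -0.46. Of the 10 genes most like C1q over gates, 9 were shared with Spearman's rho and 10 with the minimum of 20 CPM. No paired analysis was possible because each group had 1 library.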
